A study of Homo sapiens with 12 samples.

Results

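The genes of 4 stretches of chromosomes 3 and 9 were examined in HLE-B3 cells, an immortalized human lens epithelial line, with and without a knockout of ATG7. The stretches were chosen by the measured values: they were picked because their genes, on the whole, had lower RNA levels in Atg7KO cells than in wild-type (WT) cells both without treatment and after H2O2. Their limits on GRCh38 are chr3:113716460-132539032 (stretch 3A, 18.8 Mb), chr3:146515180-198043720 (stretch 3B, 51.5 Mb), chr9:36136536-109498313 (stretch 9A, 73.4 Mb) and chr9:128819651-137870016 (stretch 9B, 9.1 Mb), and a gene belongs to a stretch when its start lies within them. This gave 2579 of the 58735 genes in the count table, with 367 in stretch 3A, 877 in 3B, 1012 in 9A and 323 in 9B. Lower levels in Atg7KO cells at 0 h and 12 h are therefore how the genes were found, and every Atg7KO against WT value of a member below is a description with no test.

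Total RNA was sequenced from 4 groups of 3 biological replicates each: WT cells and Atg7KO cells, untreated (0 h) or treated with 200 μM H2O2 for 12 h. The labels give 1 growth medium for all groups and name no other allele or agent. By the study's methods the knockout was made with CRISPR/Cas9 and cells were selected with puromycin. Single clones were picked and checked for the deletion by western blot. The study's legend to its blots of the knockouts names 3 different clones. The labels do not say how many clones the Atg7KO libraries come from. A value of the Atg7KO group can thus belong to a clone as well as to the loss of ATG7, and these cannot be told apart here. The untreated libraries are labelled 0 h, so H2O2 and 12 h of further culture cannot be told apart either. In bulk RNA, fewer cells with a transcript and less transcript per cell cannot be told apart.

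Neighbouring genes on a chromosome usually serve unrelated functions and carry their own promoters while they share the DNA molecule and the chromatin of their region. RNA sequencing reads the level of each gene and not its DNA, which was not measured here, so the number of DNA copies of these stretches was not tested. The stretches hold PRKCI, an atypical protein kinase C that scaffolds with p62 in NF-κB signalling, TRAF2, an adaptor of TNF receptors, RAB7A, a small GTPase of late endosomes and lysosomes, and KLF4, a stress-induced transcription factor.

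Library totals lay between 15602183 and 17659496 reads on genes. Untreated Atg7KO replicate 1 stood apart from its group, with a mean correlation of log2 levels of 0.974 with the other 2 libraries of the group, against 0.983 for each of those and 0.991 to 0.992 in the other groups, so results at 0 h are given with and without it. Of the markers of lens epithelium, VIM (median 295 FPKM over the 12 libraries) and GJA1 (33.9 FPKM) were abundant, PAX6 was at a median of 0.811 FPKM and CRYAB at 0.532, and FOXE3, CRYAA, CDH1 and SOX2 were at or near 0. FPKM scales a gene's fragments by its length and by the size of the library. Of the fibroblast markers COL1A1 had a median of 311 FPKM, COL1A2 of 3.46 and PDGFRB of 3.18 while DCN was near 0, and the fibre cell markers MIP, BFSP2 and GJA3 (BFSP1 had a median of 0.554 and CRYGS, a member of 3B, of 1.28) and the blood markers PTPRC and HBB were at or near 0. The knocked-out gene itself lies on chromosome 3 outside the stretches, at chr3:11272309-11557665. ATG7 was at 2.81, 2.64 and 2.21 FPKM in untreated WT and at 3.78, 3.42 and 3.43 in untreated Atg7KO libraries, and after H2O2 at 1.99, 1.91 and 1.97 in WT and 2.11, 2.12 and 2.35 in Atg7KO libraries. Its mRNA was therefore not lower in the libraries labelled Atg7KO, and its level does not check the labels.

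Promoters of 4 members are shown because their levels went different ways: PRKCI was lower in Atg7KO cells, CLDN1, a tight junction protein, was higher, and KLF4 and PTX3, a secreted pattern recognition protein, differed in their H2O2 responses. Each is the 250 bases before the RefSeq start on GRCh38.p14, 5′ to 3′. By the gene limits used for counting these genes start further upstream, so the KLF4 window lies inside its gene and the other windows overlap the start of theirs. Capitals mark 4 motifs, each searched on both strands. The GC box was read as GGGCGG. The CCAAT box was read by the letters of its name. The AP-1 site was read as TGAGTCA. The TATA box was read as TATAAA. The PRKCI promoter is chr3:170222174-170222423 on the plus strand, CLDN1 is chr3:190322447-190322696 on the minus strand, KLF4 is chr9:107489770-107490019 on the minus strand, and PTX3 is chr3:157436600-157436849 on the plus strand.
PRKCI: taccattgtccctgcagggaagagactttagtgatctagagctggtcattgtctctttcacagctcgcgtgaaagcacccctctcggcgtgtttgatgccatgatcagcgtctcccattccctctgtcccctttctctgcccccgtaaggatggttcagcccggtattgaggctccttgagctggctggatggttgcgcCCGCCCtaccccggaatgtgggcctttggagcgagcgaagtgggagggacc
CLDN1: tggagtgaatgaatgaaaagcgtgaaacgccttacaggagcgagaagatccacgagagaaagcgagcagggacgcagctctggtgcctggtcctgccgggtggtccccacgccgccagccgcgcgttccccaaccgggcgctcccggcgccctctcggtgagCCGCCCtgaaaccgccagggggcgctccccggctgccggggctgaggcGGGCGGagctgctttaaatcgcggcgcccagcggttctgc
KLF4: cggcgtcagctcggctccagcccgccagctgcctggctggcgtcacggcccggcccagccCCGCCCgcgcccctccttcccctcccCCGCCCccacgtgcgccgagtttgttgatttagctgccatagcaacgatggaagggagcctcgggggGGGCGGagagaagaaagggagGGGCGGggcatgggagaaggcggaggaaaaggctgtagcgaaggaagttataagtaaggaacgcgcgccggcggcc
PTX3: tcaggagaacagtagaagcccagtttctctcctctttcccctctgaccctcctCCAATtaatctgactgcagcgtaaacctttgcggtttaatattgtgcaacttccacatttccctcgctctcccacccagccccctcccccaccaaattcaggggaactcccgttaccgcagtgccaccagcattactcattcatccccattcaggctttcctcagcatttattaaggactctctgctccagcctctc
Of these windows, KLF4 held 4 GC boxes, CLDN1 held 2 and PRKCI held 1, PTX3 held 1 CCAAT box, and none held the TATA or AP-1 letters. Their GC content was 58.0% for PRKCI, 68.8% for CLDN1, 69.2% for KLF4 and 51.6% for PTX3. Among the 535 protein-coding members tested at both times, 457 had a promoter in the RefSeq table. A GC box was present in 68.7% of them, a CCAAT box in 33.7%, a TATA box in 5.69% and an AP-1 site in 2.19%. Over all 27305 promoters of the table these shares were 42.3%, 33.0%, 11.1% and 4.16%, and over the 14896 promoters of protein-coding genes, expressed or not, they were 56.9%, 34.5%, 8.97% and 3.18%. A match of these letters is a description and not a binding site.

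Most members are not expressed in these cells. Of the 2579 members, 823 are protein-coding, 532 are processed pseudogenes, 354 are lincRNAs and 222 are antisense genes. No read was counted in any library for 878 members, and 553 had a mean above 1 FPKM. After the filter on low counts 741 members could be tested in at least 1 comparison and 1838 in none, with 668 tested in Atg7KO against WT at 0 h and 698 at 12 h. Members counted in a comparison are those that passed this filter and not the whole set.

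In every Atg7KO library the members took a smaller share of the reads than in any WT library of the same time. At 0 h the stretches took 5.34%, 5.32% and 5.35% of the reads on genes in WT libraries and 4.01%, 4.16% and 4.17% in Atg7KO libraries, and at 12 h they took 5.18% in each WT library and 4.22%, 4.23% and 4.20% in Atg7KO libraries. Over the 741 members, the median level against the WT mean of the same time, on the log2 scale, was -0.41, -0.38 and -0.39 in the untreated Atg7KO libraries and -0.33, -0.32 and -0.31 in those treated with H2O2. The WT libraries lay between -0.02 and 0.01, so the groups did not overlap, and untreated Atg7KO replicate 1 did not stand apart in this measure. Genes of the other chromosomes had a mean median of 0.02 ± 0.00656 at 0 h and 0.02 ± 0.00153 at 12 h (SD, n = 3) in Atg7KO libraries.

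**Figure D1:**
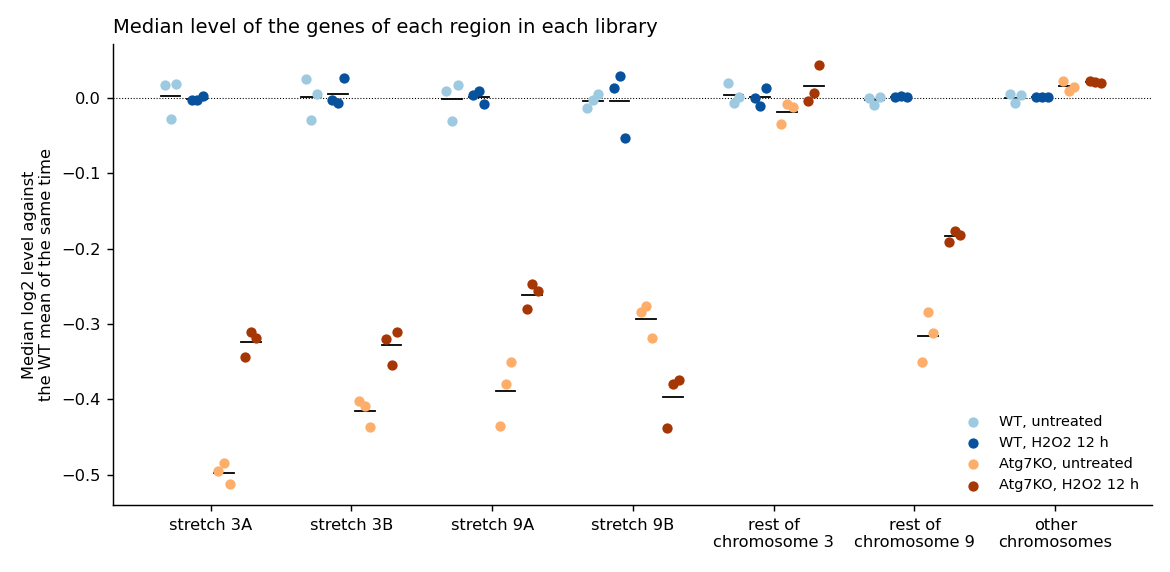
Median log2 level of the genes of each region in each of the 12 libraries, against the mean of the WT libraries of the same time. Points are libraries and black bars are means of 3 libraries. In all 4 stretches and in the rest of chromosome 9 the Atg7KO libraries lie below every WT library, while those of the rest of chromosome 3 and of the other chromosomes lie near 0.

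The stretches differed in how low they were and at which time. Stretch 3A had a mean median of -0.50 ± 0.0142 (SD, n = 3) at 0 h and of -0.32 ± 0.0178 at 12 h in Atg7KO libraries. Stretch 3B was at -0.42 ± 0.0185 and -0.33 ± 0.0236, and stretch 9A at -0.39 ± 0.0432 and -0.26 ± 0.0171. Stretch 9B went the other way with time, with -0.29 ± 0.0229 at 0 h and -0.40 ± 0.0353 at 12 h. The rest of chromosome 9 had -0.32 ± 0.0337 and -0.18 ± 0.00709, and the rest of chromosome 3 had -0.02 ± 0.014 and 0.02 ± 0.0251. The lower levels on chromosome 9 were therefore not limited to its 2 stretches.

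At 12 h, 378 of the 698 tested members were lower in Atg7KO cells and 67 were higher at an adjusted p below 0.01 (edgeR, quasi-likelihood, adjusted over the whole table). Over all 15909 genes tested, 27.9% were called lower and 27.7% higher. Since this contrast chose the members, nothing is read from the difference. By stretch, 57 of 106 members of 3A, 121 of 224 of 3B, 100 of 212 of 9A and 100 of 156 of 9B were called lower, with median log2 fold changes of -0.37, -0.35, -0.26 and -0.38. The middle 50% of the members lay between -0.72 and -0.01, so the size of the difference varied widely between genes. The median of the members that passed the filter was -0.32, and it was -0.61 with DESeq2 and -0.58 with no filter on low counts. The last 2 medians are over every member with a read in these libraries, so they add members of low count and are not over the same genes. With all 12 libraries in the fit 249 members were called lower and 25 higher, and the share over all genes in that fit is not given. The groups did not overlap, with all Atg7KO libraries below all WT libraries, for 415 of the 698 members, and over all genes tested this was so for 33.6%.

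At 0 h, 89 of the 668 tested members were called lower and 11 higher, beside 3.28% lower and 4.42% higher over all 15357 genes. This count depends on single libraries. Without Atg7KO replicate 1 it was 385 lower and 23 higher of 698 members, beside 17.9% lower and 18.2% higher over all genes, and without Atg7KO replicate 2 or 3 it was 24 or 23 lower. Without WT replicate 1, 2 or 3 it was 11, 12 and 11 lower, respectively. For the fits without Atg7KO replicate 2 or 3 or without a WT replicate, the shares over all genes are not given. The median of the members moved little, from -0.38 with all libraries to -0.40 without Atg7KO replicate 1. All 3 Atg7KO libraries lay below all 3 WT libraries for 369 of the 668 members, beside 23.0% of all genes. At both times 63 members were called lower, out of 89 at 0 h and 378 at 12 h, and 6 were called higher at both, out of 11 and 67. The share of all genes called at both times is not given, so nothing is read from these counts.

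The lower levels extended over neighbouring genes, as the choice of the stretches by these same values implies. The window medians and shares of the members below are therefore a description, and nothing is read from their distance to other chromosomes. Along both chromosomes, the stretches held 30 windows of 20 consecutive genes tested at both times. The window medians of the log2 fold change ran from -0.68 to -0.10 at 0 h and from -0.59 to -0.05 at 12 h, so all 30 were below 0 at each time. On the other chromosomes 43.2% of 653 windows were below 0 at 0 h and 40.7% at 12 h, with 90% of the windows between -0.26 and 0.28 at 0 h and between -0.35 and 0.34 at 12 h. On the rest of chromosome 9, 13 of 14 windows were below 0 at 0 h and 10 of 14 at 12 h. Runs of this kind were not limited to the stretches. On chromosome 19, 19 neighbouring windows were below 0 at both times, from -0.55 to -0.09 at 0 h and from -0.76 to -0.03 at 12 h, and on chromosome 14, 8 neighbouring windows were above the 95th percentile at both times, from 0.54 to 0.98 at 0 h and from 0.56 to 0.77 at 12 h. Of the 644 members tested at both times, 416 were below 0 at both, which is 64.6%, and 44 were above 0 at both, while 24.5% of the genes of the other chromosomes were below 0 at both.

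**Figure D2:**
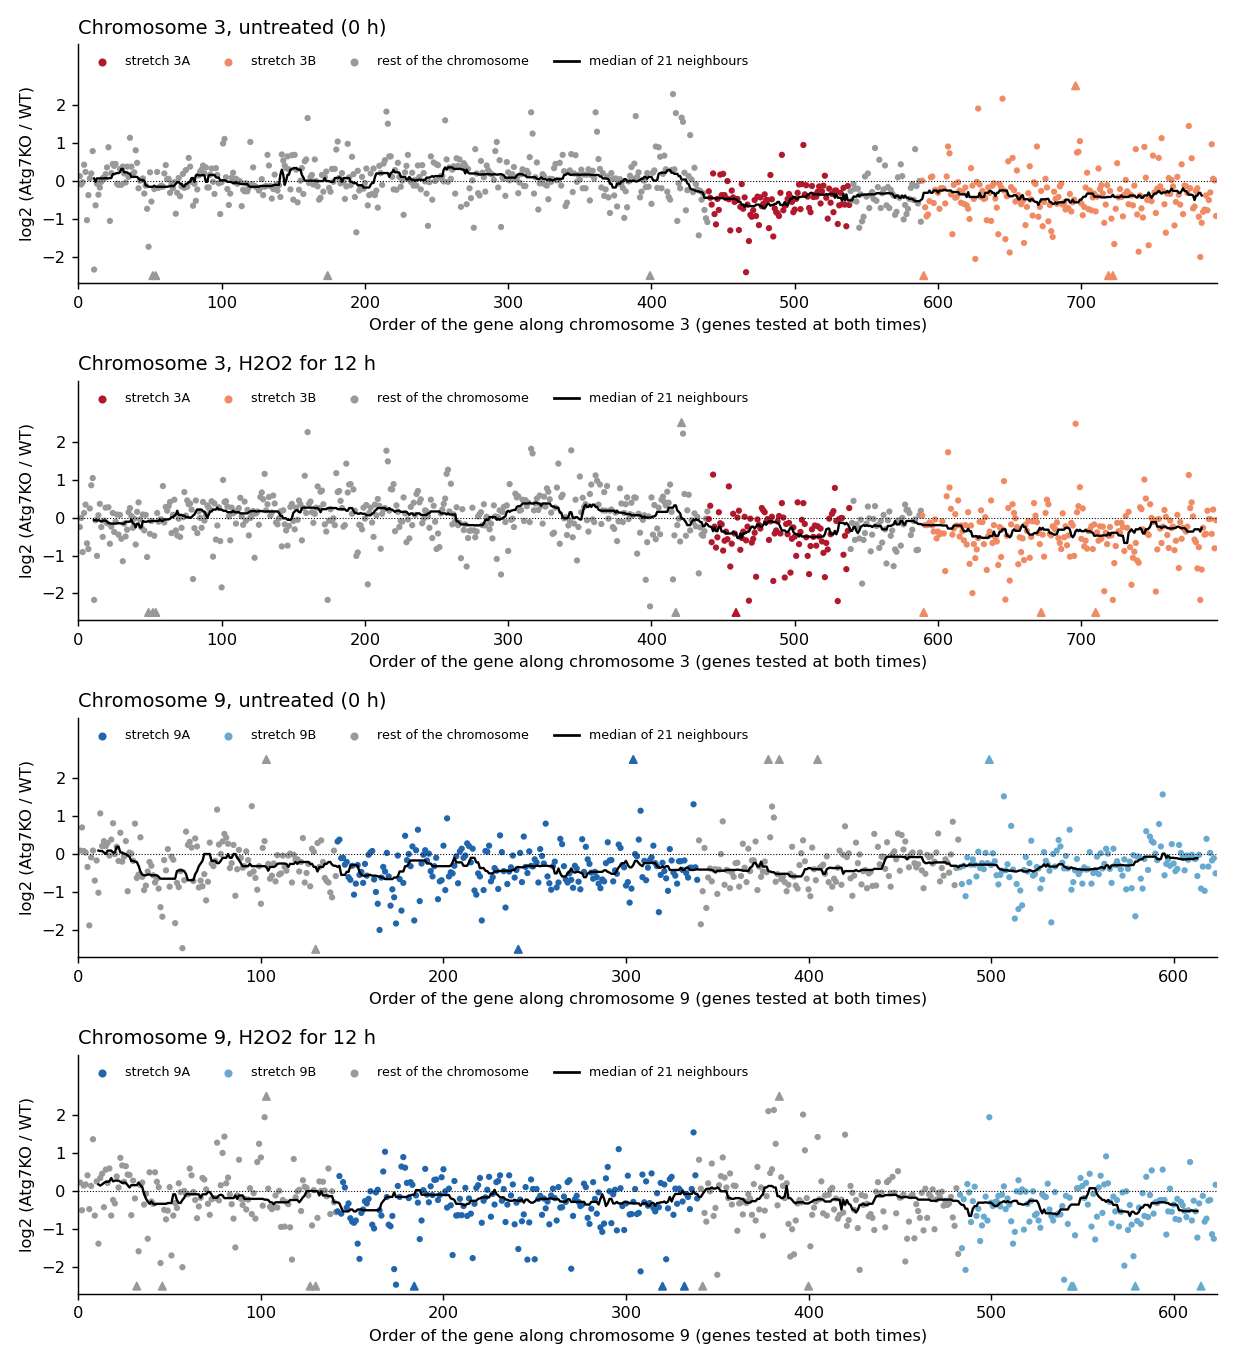
Log2 ratio of Atg7KO to WT for each gene of chromosomes 3 and 9 tested at both times, in their order along the chromosome, at 0 h and after H2O2 for 12 h. Points are genes coloured by stretch, triangles are genes beyond 2.5 in either direction and the black line is the median of 21 neighbouring genes. The line lies near 0 over the first part of chromosome 3 and falls before stretch 3A, while on chromosome 9 it is below 0 over most of the chromosome.

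The edges of the stretches were mostly not steps in the data. On chromosome 3 the 439 genes before stretch 3A had medians of 0.04 at 0 h and 0.08 at 12 h, but the last 20 of them had already -0.24 and -0.10, and the first 20 inside had -0.45 and -0.40. Just outside, USF3, a transcription factor, was at log2 fold changes of -1.09 at 0 h and 0.16 at 12 h, and SPICE1, a centriole protein, at -0.99 and -0.03. Just inside, NAA50, an N-terminal acetyltransferase, had -0.28 and -0.04, and ATP6V1A, the catalytic subunit of the lysosomal proton pump, had -0.45 and 0.31. The 50 genes between stretches 3A and 3B were lower as well, with medians of -0.36 and -0.19. There the last 2 genes of 3A, MRPL3 (-0.14 and -0.35) and DNAJC13 (-0.64 and 0.25), were followed by ACKR4 (-0.27 and -0.83). Stretch 3B began with PLSCR1, a phospholipid scramblase, at 0.00 and 0.05 after PLOD2 (-0.01 and 0.06) and PLSCR4 (-1.08 and 0.18), and it ended, with no tested gene beyond it, with RPL35A (0.01 and -0.81) and LMLN (-0.93 and -0.07).

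On chromosome 9 the 141 genes before stretch 9A had medians of -0.20 at 0 h and -0.11 at 12 h, and the 143 genes between 9A and 9B had -0.36 and -0.22. RECK, an inhibitor of matrix metalloproteinases just before 9A, was at -0.57 and -0.55, below GLIPR2 (0.34 and -0.53) and CCIN (0.39 and 0.40) just inside. EPB41L4B (-0.34 and 0.42) and PTPN3 (-0.67 and -0.19) closed stretch 9A, and PALM2 (0.37 and 0.83) and AKAP2 (-1.84 and 0.07), which are adjacent and may share reads, followed it. Before stretch 9B, TBC1D13 had -0.36 and 0.08 and ENDOG, a mitochondrial nuclease, had 0.39 and -1.65, and inside it SPOUT1 had -0.34 and -0.09 and KYAT1 had -0.78 and -1.50. The stretch closed with EHMT1, a histone methyltransferase, at -0.50 and 0.17 and with ARRDC1-AS1. Values of genes just inside and just outside the limits thus overlapped.

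Medians by length class were lowest for long members at 0 h and for short members at 12 h, although single members such as CPA3 (1848 bases) and MELTF (8393 bases) were far lower than their class at both times. In the shortest of 4 length classes, up to 2839 bases, the members had medians of -0.15 at 0 h and -0.50 at 12 h. In the longest, above 7219 bases, they had -0.55 at 0 h and -0.14 at 12 h. Genes of the other chromosomes had the same trend, from 0.20 in the shortest to -0.11 in the longest class at 0 h and from -0.15 to 0.20 at 12 h. The members lay below the genes of the same length elsewhere by 0.35, 0.42, 0.44 and 0.44 log2 units at 0 h, from the shortest class to the longest, and by 0.35, 0.34, 0.38 and 0.34 at 12 h. Within classes of like length, the difference from other genes was thus between 0.34 and 0.44 at both times. Of the members tested at both times, the median length was 5130 bases in 3A, 5247 in 3B, 4536 in 9A and 3766 in 9B, and 36.9% of the genes in 9B against 21.2% in 3A fell in the shortest class. What part length has in the opposite time courses of 9B and the other stretches was not tested.

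The lower medians were present at every level of expression. Members with a mean above 10 FPKM had medians of -0.30 at 0 h and -0.29 at 12 h (251 genes), those between 1 and 10 FPKM had -0.44 and -0.30 (278 genes), and those at 1 FPKM or less had -0.58 and -0.45 (115 genes). Protein-coding members had medians of -0.38 at 0 h and -0.31 at 12 h, and antisense members had -0.62 and -0.80. Processed pseudogenes, whose reads can come from an expressed parent gene elsewhere, had a median of 0.05 at 0 h, with 12 of 27 below 0, and of -0.20 at 12 h, with 18 of 25 below 0. The strand setting of the counting is not given in the sources used here, so antisense genes can hold reads of their partners.

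Values of single members show how the small common difference sat beside larger ones of a few genes. PRKCI (chr3:170222365-170305981, stretch 3B) was at 37.1, 34.5 and 36.4 FPKM in untreated WT libraries and at 20.6, 23.2 and 23.4 in untreated Atg7KO libraries. After H2O2 it was at 25.3, 25.6 and 24.5 in WT and 20.3, 19.4 and 19.8 in Atg7KO libraries. The groups did not overlap at either time, and the log2 fold changes were -0.69 ± 0.10 (SE) at 0 h and -0.35 ± 0.04 at 12 h. TRAF2 (chr9:136881912-136926607, stretch 9B) was at 20.6, 21.9 and 21.1 FPKM in untreated WT and at 25, 20 and 19.5 in untreated Atg7KO libraries, where replicate 1 was the highest and the groups overlapped. At 12 h TRAF2 was at 22.6, 25.1 and 21.4 in WT and at 19.2, 18.2 and 19.5 in Atg7KO libraries, all below WT, with log2 fold changes of 0.02 ± 0.12 and -0.29 ± 0.05.

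Among the most abundant members, FSTL1, a secreted glycoprotein of stretch 3A, was at 196, 181 and 198 FPKM in untreated WT and at 125, 114 and 118 in untreated Atg7KO libraries. With H2O2 it was at 106, 107 and 107 in WT and at 59.1, 60.1 and 59.7 in Atg7KO libraries. RAB7A was at 124, 109 and 122 FPKM in untreated WT against 94.5, 86.1 and 82.7 in Atg7KO libraries, and at 188, 188 and 185 against 134, 131 and 132 at 12 h. FSTL1 and RAB7A were thus lower in each Atg7KO library at both times. CNBP, a nucleic acid binding protein between 111 and 183 FPKM in untreated Atg7KO cells, was highest there in replicate 1, and its log2 fold changes were -0.15 ± 0.19 at 0 h and -0.50 ± 0.04 at 12 h.

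In stretch 3B the most abundant members were PSMD2, a subunit of the proteasome cap, AP2M1, the cargo-binding subunit of the AP-2 clathrin adaptor, and EIF4G1, a scaffold of translation initiation. AP2M1 was at 166, 163 and 169 FPKM in untreated WT and 139, 116 and 113 in untreated Atg7KO libraries, and at 154, 155 and 158 against 89.7, 86.8 and 87.4 at 12 h. It was lower in every Atg7KO library, with log2 fold changes of -0.44 ± 0.11 and -0.83 ± 0.03. PSMD2 had log2 fold changes of -0.12 ± 0.10 and -0.56 ± 0.03, and EIF4G1 of -0.34 and -0.24. On chromosome 9, HNRNPK, an RNA-binding protein, had 0.06 ± 0.10 and -0.25 ± 0.03, RPL7A, a protein of the large ribosomal subunit, had 0.10 ± 0.22 and -0.62 ± 0.03, and TUBB4B, a beta tubulin, had -0.01 and -0.77. RPL7A was at 677 FPKM in untreated Atg7KO replicate 1 and at 393 and 392 in the other 2, beside 452, 440 and 471 in untreated WT. ANP32B had -0.28 and -0.39, CKS2, a subunit of cyclin-dependent kinases, had -0.13 and -1.79, and the pseudogene EEF1A1P5 had 0.06 and -0.13.

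**Figure D3:**
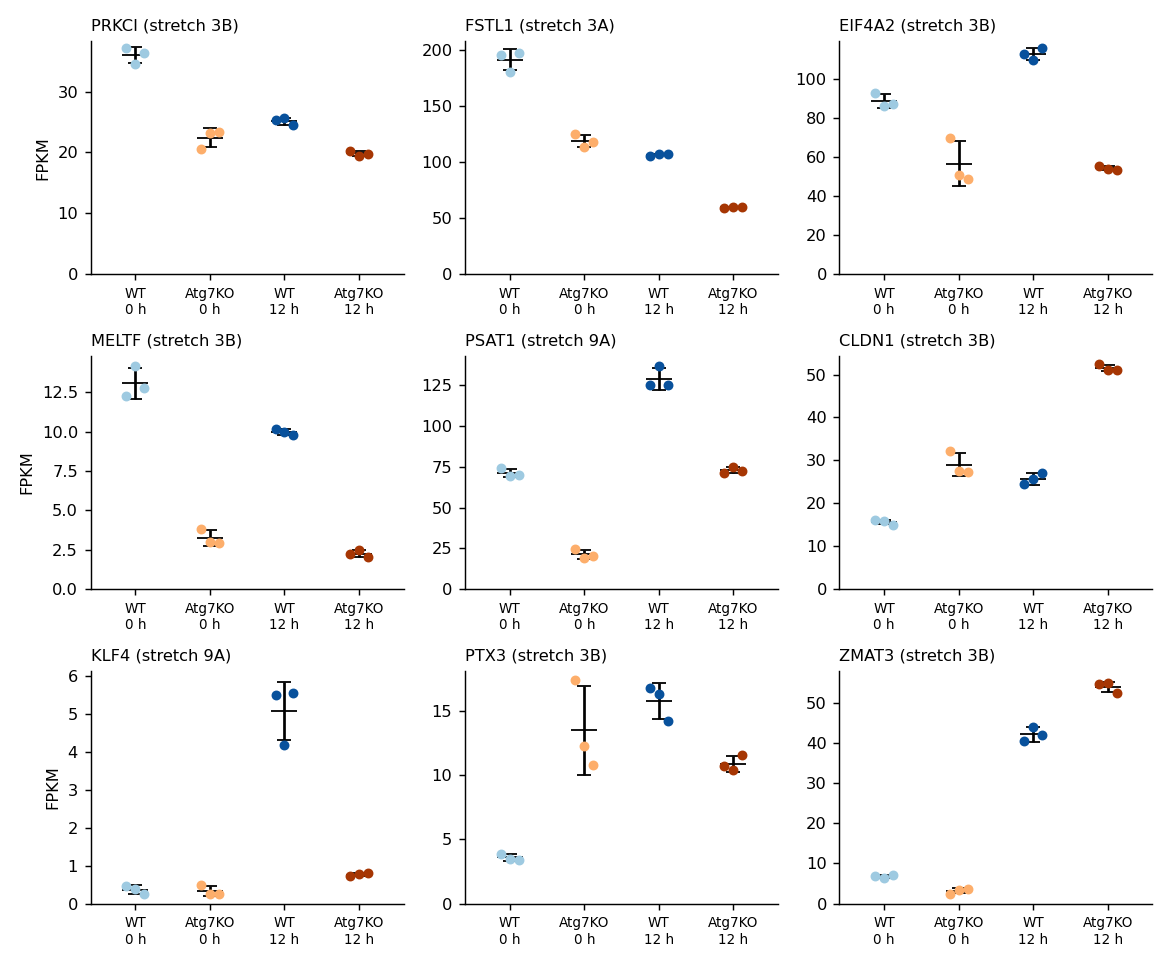
FPKM of 9 members in each library, with the mean (black dash) and SD (bars) of 3 libraries per group. PRKCI, FSTL1, EIF4A2, MELTF and PSAT1 are lower in all Atg7KO libraries than in WT libraries of the same time, CLDN1 is higher, and KLF4, PTX3 and ZMAT3 differ in how H2O2 moved them.

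The members with the lowest ratios were far below the common difference. MELTF, a membrane-bound iron-binding protein of stretch 3B, was at 12.3, 14.2 and 12.8 FPKM in untreated WT and 3.82, 3 and 2.92 in untreated Atg7KO libraries, and at 10.2, 10.0 and 9.82 against 2.21, 2.47 and 2.05 at 12 h. This is a log2 fold change of -2.01 ± 0.13 at 0 h and of -2.17 ± 0.06 at 12 h. CPA3, a carboxypeptidase of mast cell granules, was at 2.24 to 2.39 FPKM in untreated WT and 0.262 to 0.334 in untreated Atg7KO libraries. C3orf70 was at 1.91 to 1.96 against 0.0925 to 0.137 FPKM at 0 h and at 1.45 to 1.63 against 0.237 to 0.406 at 12 h. B3GALNT1, a glycosyltransferase, had log2 fold changes of -1.54 ± 0.30 and -2.16 ± 0.25, and VWA5B2 of -0.81 ± 0.51 and -2.89 ± 0.32. At 0 h VWA5B2 was near 0 and the groups overlapped. It was at 0.0901, 0.19 and 0.177 FPKM in untreated WT and at 0.148, 0.0686 and 0.0471 in untreated Atg7KO libraries. On chromosome 9 the lowest was DAPK1, a death-associated calcium/calmodulin-dependent kinase. DAPK1 was at 1.65, 1.71 and 1.52 FPKM in untreated WT, at 0.0340, 0.0315 and 0.0303 in untreated Atg7KO, at 2.10, 2.41 and 1.89 in treated WT and at 0.682, 0.882 and 0.673 in treated Atg7KO libraries. The other 4 lowest on chromosome 9 were the pseudogenes BMS1P10 and AL355987.5, the lincRNA BX255923.1 and the antisense gene DBH-AS1, whose reads may be shared with other genes.

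Some members went the other way within the same neighbourhoods. CLDN1 (chr3:190305701-190322475) was at 16, 15.8 and 15 FPKM in untreated WT and at 32.2, 27.5 and 27.3 in untreated Atg7KO libraries, and at 24.4, 25.6 and 27.1 against 52.4, 51.1 and 51.0 at 12 h. It was thus higher in each Atg7KO library, with log2 fold changes of 0.89 ± 0.10 and 1 ± 0.04. LAMP3, a lysosomal membrane protein, was at 0.180 to 0.242 FPKM in untreated WT and 1.35 to 1.82 in untreated Atg7KO libraries, and at 0.187 to 0.216 against 0.798 to 1.38 at 12 h. ITGB5, an integrin beta subunit of stretch 3A, had log2 fold changes of 0.68 ± 0.09 and 0.38 ± 0.04. PTGES, the inducible prostaglandin E synthase of stretch 9B, was at 0.545, 0.201 and 0.564 FPKM in untreated WT and 6.65, 5.21 and 5.18 in untreated Atg7KO libraries, and its log2 fold changes were 3.70 ± 0.31 and 1.95 ± 0.39. The other members highest in the mean of both times were AADAC, AADACP1 and LINC00888 on chromosome 3 and CLIC3, ASS1, FOXE1 and AL138781.1 on chromosome 9. None of them was called higher at both times, and AADAC and CLIC3 were called at neither. ASS1 had 1.53 ± 0.18 at 0 h but 0.13 ± 0.15 at 12 h. FOXE1 had 0.26 ± 0.29 and 1.11 ± 0.12, and AL138781.1 had 0.15 ± 0.43 and 0.92 ± 0.17. AADAC and AADACP1 are a gene and its pseudogene, which may share reads. Leaving out untreated Atg7KO replicate 1 moved the 0 h log2 fold changes of 26 members named for their level or ratio by -0.30 to 0.15, with RPL7A (0.10 to -0.20), CNBP (-0.15 to -0.42) and CKS2 (-0.13 to -0.40) moving most.

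Grouped by function, with lists written with earlier results of these data known, most groups had medians below 0, as the choice of the stretches implies. The counts of the groups stand beside the 54.2% of members and 27.9% of all genes called lower at 12 h and the 9.6% and 27.7% called higher. At 0 h these shares were 13.3% and 3.28% lower and 1.65% and 4.42% higher. Nothing particular to a group is read from its count. Of 20 mitochondrial proteins tested at 12 h, 16 were called lower and 0 higher, with a median log2 fold change of -0.58 and a range of -1.01 to -0.01. All 20 were below 0, so none was higher at an unadjusted p under 0.05 either (edgeR). They included MRPL47 (-0.67), NDUFB5 of respiratory complex I (-0.83) and ALDH1B1 (-0.98). At 0 h the same 20 had a median of -0.19, with 4 called lower. Members of any function up to 2839 bases had medians of -0.15 at 0 h and -0.50 at 12 h, and the part of gene length in the values of this list was not tested. Of 14 translation and RNA-binding proteins, 12 were called lower and 1 higher at 12 h, with a median of -0.42. EIF4A2, a translation initiation helicase, was at 92.9, 86.1 and 87.3 FPKM in untreated WT and 69.9, 50.9 and 49.1 in untreated Atg7KO libraries, and at 113, 110 and 116 against 55.5, 54.2 and 53.7 at 12 h. MBNL1, a splicing regulator, was the 1 higher at 12 h, at 0.23. Of 13 proteins of the endoplasmic reticulum translocon and of glycosylation, 11 were called lower at 12 h, among them SEC61A1 (-0.17), SEC62 (-0.55) and DNAJB11 (-0.78).

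Growth and proliferation genes of stretch 3B had lower values at 0 h than at 12 h, a difference that was not tested for the group. All 16 tested were below 0 at 0 h, with a median of -0.66 and 9 called lower, and at 12 h 9 were called lower and 2 higher, with a median of -0.23. Members of any function above 7219 bases had medians of -0.55 at 0 h and -0.14 at 12 h. The growth genes differ in length, such as LPP (25535 bases) and ACTL6A (3675 bases), and the part of length in their values was not tested. ECT2, the exchange factor that drives cytokinesis, had -0.69 and -0.70, PIK3CA, the catalytic subunit of PI3 kinase, had -0.64 and -0.43, and BCL6, a transcriptional repressor, had -0.89 ± 0.16 and -1.13 ± 0.07. PAK2 (-0.73 and 0.03) and TBL1XR1 (-0.18 and 0.47) were not lower at 12 h. SOX2 and TP63 were at or near 0 and were not tested. Of 17 genes of DNA replication, repair and mitosis, 10 were called lower and 3 higher at 12 h, and 3 lower at 0 h, with medians of -0.26 and -0.46. SMC4, a condensin subunit, had -0.71 and -0.63, and MCM2, of the replicative helicase, had -0.75 and -0.38.

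Of 23 genes of vesicle traffic, lysosome and autophagy, 12 were called lower and 5 higher at 12 h, and 4 lower and 1 higher at 0 h. STX17, the SNARE of autophagosome fusion, had -0.60 at 0 h and 0.44 at 12 h, PIK3R4, a subunit of the autophagy PI3 kinase, had -0.65 and -0.04, and TFRC, the transferrin receptor, had 0.10 and 0.07. Of 12 matrix, adhesion and surface genes, 8 were called lower and 3 higher at 12 h, and of the 10 tested at 0 h 1 was called lower and 4 higher, with a median of 0.18. Of 18 receptors and signalling genes 12 were called lower and 2 higher at 12 h, of 19 transcription and chromatin regulators 11 and 5, and of 13 metabolic enzymes 9 and 1. GATA2, a zinc finger transcription factor, was at 13.0 to 13.5 FPKM in untreated WT and 7.90 to 8.32 in untreated Atg7KO libraries, and at 17.3 to 19.4 against 6.36 to 6.69 at 12 h. PSAT1, an enzyme of serine synthesis, was at 74.0, 69.3 and 69.8 FPKM in untreated WT and 24.6, 19.1 and 20 in untreated Atg7KO libraries, and at 125, 137 and 125 against 71.5, 75.1 and 72.7 at 12 h. Of 6 interferon-inducible and death ligand genes 1 was called lower and 1 higher at 12 h, and of the 2 tested lens and phospholipid-binding genes ANXA1 (0.15 and -0.63) was called lower at 12 h and CRYGS (-0.28 and -0.27) at neither time.

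The response to H2O2 within each line did not enter the choice of the stretches, although it is computed from the same libraries. In WT cells the members responded about as often as other genes. Of 710 members tested, 225 rose (31.7%) and 220 fell (31.0%) at an adjusted p below 0.01, beside 30.9% and 30.1% of all 15913 genes. By stretch, 18.7% of 3A rose and 43.0% fell, 31.3% and 34.4% of 3B, 31.5% and 29.2% of 9A, and 41.4% and 20.4% of 9B. The members of 3A thus had more genes falling, and those of 9B more rising, than the 30.1% and 30.9% of all genes. Their median log2 changes were -0.21 and 0.16. On the rest of chromosome 9, outside the stretches, 31.4% rose and 35.9% fell. The shortest length class held 36.9% of the genes of 9B and 21.2% of those of 3A. The part of length in these shares was not tested. In Atg7KO cells 95 of 656 members rose (14.5%) and 71 fell (10.8%), beside 13.6% and 12.4% of all 15475 genes. Without untreated Atg7KO replicate 1 these were 219 and 198 of 679 members, which is 32.3% and 29.2%, beside 29.8% and 28.6% of all genes.

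**Figure D4:**
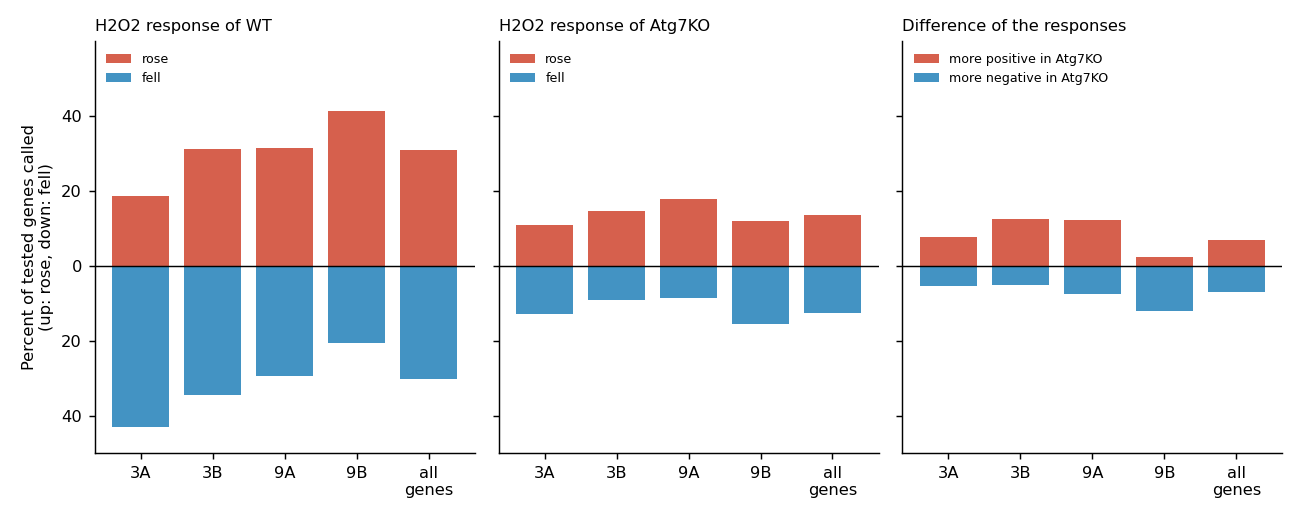
Percent of tested genes called at an adjusted p below 0.01 in each stretch and over all genes, for the H2O2 response of WT cells, the H2O2 response of Atg7KO cells and the difference of the responses. Bars upward are genes that rose or were more positive in Atg7KO cells, bars downward are genes that fell or were more negative. Stretch 9B has 41.4% rising in WT cells and stretch 3A has 43.0% falling, against 30.9% and 30.1% of all genes.

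Among members with a mean above 1 FPKM that responded in WT cells, IL12A and the antisense gene ARHGAP31-AS1 were among those that rose most on chromosome 3. ARHGAP31-AS1 rose by 5.00 ± 0.31 log2 units in WT and had 0.84 ± 0.47 in Atg7KO cells. IL12A, a subunit of interleukin 12, rose by 3.19 ± 0.18 log2 units in WT (edgeR adjusted p = 1.32e-20) and by 2.65 ± 0.22 in Atg7KO cells (edgeR adjusted p = 0.000163). On chromosome 9, with the same limit on the mean, KLF4, AL138781.1 and ABCA1 rose most in WT cells, and NR4A3, whose mean was 0.49 FPKM, is described below. ABCA1, a cholesterol exporter, rose by 2.64 ± 0.05 log2 units in WT and 2.82 ± 0.21 in Atg7KO cells. The members that fell most were TRIM59 (-1.77 ± 0.10), PLD1 (-1.54 ± 0.09) and IFT80 (-1.50 ± 0.10) on chromosome 3 and VPS13A (-1.45 ± 0.05), SHC3 (-1.44 ± 0.07) and KLF9 (-1.24 ± 0.06) on chromosome 9. Of these 6, TRIM59, PLD1, IFT80 and KLF9 also fell in Atg7KO cells, while VPS13A had -0.30 ± 0.25 and SHC3 -0.82 ± 0.19 there, short of the threshold. TRIM59 and IFT80 are neighbours that also give joined transcripts, so they can share reads.

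The lists also held responses. They were written with earlier results of these data known, so nothing particular to a list is read from its counts. Of 18 receptors and signalling genes in WT cells 11 rose and 3 fell, beside 30.9% rising and 30.1% falling over all genes. NOTCH1 rose by 1.57 ± 0.05 log2 units in WT and 2.49 ± 0.27 in Atg7KO cells (edgeR adjusted p of 1.33e-23 and 0.000511). Of 17 genes of replication, repair and mitosis 10 fell and 1 rose in WT cells, and of 16 growth genes 12 fell and 2 rose, beside 30.1% falling over all genes. SMC4 fell by 1.26 and ECT2 by 1.24 log2 units in WT cells, and by 1.17 and 1.25 in Atg7KO cells. NINJ1, an adhesion protein of the plasma membrane, rose by 1.80 ± 0.05 in WT and 1.12 ± 0.13 in Atg7KO cells. PRKCI fell by 0.52 ± 0.05 log2 units in WT cells (edgeR adjusted p = 3.25e-14) and had -0.18 ± 0.09 in Atg7KO cells (edgeR adjusted p = 0.158). The difference of its responses, 0.34 ± 0.10, was short of the threshold (edgeR adjusted p = 0.0214). TRAF2 had 0.11 ± 0.06 in WT and -0.19 ± 0.11 in Atg7KO cells and passed in neither.

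The difference of the H2O2 responses of the 2 lines equals the difference of the 2 Atg7KO against WT contrasts, which were both used to choose the members, so it is not independent of the choice and its counts and single values are a description with no test. Of 741 members, 71 were called more positive in Atg7KO cells (9.58%) and 54 more negative (7.29%), beside 7.02% and 7.01% of all 16856 genes. By stretch, 9 of 114 members of 3A, 30 of 239 of 3B, 28 of 229 of 9A and 4 of 159 of 9B were more positive, and 6, 12, 17 and 19 were more negative. Stretch 9B had the largest share of genes in the shortest length class, 36.9%, and the part of length in these counts was not tested. Without untreated Atg7KO replicate 1 there were 164 more positive and 114 more negative members, of 780 tested, beside 17.8% and 16.3% of all genes.

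KLF4 (chr9:107484852-107490482) was at 0.470, 0.401 and 0.246 FPKM in untreated WT and at 0.481, 0.261 and 0.266 in untreated Atg7KO libraries, so the lines overlapped without treatment. After H2O2 it was at 5.50, 4.19 and 5.55 FPKM in WT libraries and at 0.718, 0.782 and 0.803 in Atg7KO libraries. The rise in WT cells was 3.76 ± 0.17 log2 units (edgeR adjusted p = 9.16e-24), the value in Atg7KO cells was 1.19 ± 0.28 (edgeR adjusted p = 0.0126), and the difference was -2.56 ± 0.37. NR4A3, an immediate early nuclear receptor of the same stretch, rose by 4.28 ± 0.25 in WT cells and had 1.03 ± 0.23 in Atg7KO cells (difference -3.25 ± 0.38). HES1, a target of Notch signalling in stretch 3B, rose by 2.11 ± 0.12 and 1.35 ± 0.13 log2 units (difference -0.77 ± 0.18).

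PTX3 (chr3:157436789-157443628) was at 3.87, 3.50 and 3.42 FPKM in untreated WT and already at 17.4, 12.3 and 10.8 in untreated Atg7KO libraries. After H2O2 it was at 16.8, 16.3 and 14.2 in WT and 10.7, 10.4 and 11.6 in Atg7KO libraries. In WT cells it thus rose above untreated Atg7KO replicates 2 and 3 and stayed below replicate 1, the library that stood apart. The difference of responses was -2.44 ± 0.22. ZMAT3, a p53-induced RNA-binding protein, went the other way. It was at 6.78, 6.39 and 7.04 FPKM in untreated WT, at 2.5, 3.52 and 3.58 in untreated Atg7KO, at 40.4, 43.9 and 41.9 in treated WT and at 54.5, 54.8 and 52.4 in treated Atg7KO libraries, so the order of the lines turned with treatment. Its difference of responses was 1.43 ± 0.16.

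DAPK1 rose by 0.38 ± 0.10 log2 units in WT and by 4.51 ± 0.24 in Atg7KO cells, where it started from a level near 0 (difference 4.12 ± 0.27). CKS2 fell by 0.78 ± 0.08 log2 units in WT and by 2.44 ± 0.21 in Atg7KO cells (difference -1.65 ± 0.24). GATA2 rose by 0.46 ± 0.06 in WT cells and had -0.30 ± 0.09 in Atg7KO cells (difference -0.76 ± 0.10). PSAT1 rose by 0.86 log2 units in WT and by 1.78 in Atg7KO cells, from the lower untreated level given above, with a difference of 0.92. After H2O2 it was still below WT in every Atg7KO library.

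The responses of Atg7KO cells include untreated Atg7KO replicate 1, which stood apart. Without it, the differences of responses were -2.22 for KLF4, -3.30 for NR4A3, -0.66 for HES1 and -2.21 for PTX3, and they were 1.29 for ZMAT3, 4.17 for DAPK1, -1.37 for CKS2, -0.77 for GATA2 and 1.04 for PSAT1. All 9 kept their sign. Of the Atg7KO responses given above, those that missed the threshold with this library and passed without it were 1.52 for KLF4, 0.96 for NR4A3, -0.31 for GATA2, -1.01 for SHC3, -0.56 for VPS13A and -0.25 for PRKCI.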

How the data were processed

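RNA of 12 libraries was prepared with a NEBNext Ultra kit. The submitters' processing notes name HISAT2 2.0.5, featureCounts 1.5.0-p3 and GRCh38. The deposited gene counts hold whole reads with no scaling, and the authors scaled them by gene length and library size to give FPKM. Strand and multimapping settings are not given in the sources used here, so overlapping, antisense and duplicated genes can share reads.

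Counts were tested with edgeR 4.0.16 in R 4.3.3 (minimum count of 10, TMM, robust quasi-likelihood fit, Benjamini-Hochberg adjustment over all genes, calls at an adjusted p under 0.01). Each comparison used its own 6 libraries, and the difference of responses used 12. Alternatives were RLE and upper quartile scaling, TMM from genes outside chromosomes 3 and 9, DESeq2 1.42.0, limma 3.58.1 on log2(FPKM + 1), other filters and thresholds, all libraries in each fit, a gene length offset, a replicate block and each library left out. The scripts were tested on simulated data with 200 changed genes. The simulated spread between replicates was the same for all comparisons and no library stood apart. It was smaller than the spread (coefficient of variation) estimated at 0 h (0.162), for the Atg7KO response (0.161) and for the difference of responses (0.12). The simulation thus does not show how calls behave in these comparisons. Replicate numbers were not used as pairs, because deviations of same-numbered libraries had correlations of -0.043 to 0.098. P-values measure the spread between libraries labelled as biological replicates.

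The members and gene lists were chosen with earlier results of these data known. Named genes were, per stretch, the first and last 2 tested members, the 2 tested genes beyond each limit and the 3 most abundant members. Per chromosome they were the 5 lowest and 5 highest in the mean ratio of Atg7KO to WT (same sign at both times, above 1 FPKM in a group) and, among called members above 1 FPKM, the 3 largest H2O2 responses of WT and the 3 largest differences of responses, in each direction. Examples from the lists, PRKCI, TRAF2 and ATG7 were added, and the promoters printed were chosen after the values were seen. Some genes that this rule names are not reported here.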

Additional observations from a re-analysis of the deposited data

Results flagged for a closer look

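The H2O2 response of WT and Atg7KO cells differed for the members below, called over all 12 libraries (edgeR, adjusted p below 0.01, 7.01% of all genes more negative and 7.02% more positive). Values are the response of Atg7KO cells minus that of WT cells on the log2 scale. This difference equals that of the contrasts which chose the stretches, so for the members it is a description and not an independent test, and no explanation was tested. On other chromosomes the median ratio of Atg7KO to WT also moved with gene length. It went from 0.20 at 0 h to -0.15 at 12 h in the shortest class and from -0.11 to 0.20 in the longest. The part of length in the values below was not tested.

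The response was more negative in Atg7KO cells for the transcription factors and immediate early genes KLF4 (-2.56), NR4A3 (-3.25), HES1 (-0.77) and GATA2 (-0.76). It was also more negative for PTX3 (-2.44), CKS2 (-1.65) and NINJ1 (-0.68), and for the RNA genes and pseudogene ARHGAP31-AS1 (-4.17), DBH-AS1 (-2.17), SNHG7 (-1.69) and ATP5MC1P4 (-2.36), whose reads may be shared with other genes. It was more positive for DAPK1 (4.12), C3orf70 (1.84), AC063952.1 (1.48), ZMAT3 (1.43), KIF27 (1.18), YEATS2 (1.16), VPS13A (1.16), PSAT1 (0.92) and SMC2 (0.62).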

How the results depend on the processing

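The median log2 fold change of the members stayed below 0 at both times under every alternative run, while counts of called members changed between alternatives. DESeq2 and the fit with no filter took in every gene with a read, so their medians add members of low count and are not over the same genes. The cause of each change was not tested. At 12 h the median of -0.32 became -0.36 with upper quartile scaling, -0.34 with TMM from genes outside chromosomes 3 and 9 and with all 12 libraries in the fit, -0.61 with DESeq2, -0.58 with no filter, -0.31 with at least 10 counts in every library and in protein-coding members, -0.35 with a gene length offset, -0.22 on log2(FPKM + 1) and -0.29 above 1 FPKM, and leaving out 1 library gave -0.35 to -0.32. At 0 h the median of -0.38 became -0.40 with TMM from genes outside both chromosomes, -0.43 with DESeq2 and with no filter, -0.28 on log2(FPKM + 1) and -0.36 above 1 FPKM, and leaving out 1 library gave -0.41 to -0.38.

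For the counts below, shares over all genes are given above only for the main fits and those without untreated Atg7KO replicate 1. The other counts do not show whether the members moved more than the rest of the genes. At 12 h, 249 members were lower and 25 higher with all 12 libraries in the fit, and 65 and 5 at the study's thresholds (log2 fold change beyond 1 and above 1 FPKM as well), against 378 and 67. At 0 h, against 89 lower and 11 higher, there were 186 and 17 with DESeq2, 246 and 19 with all 12 libraries, 224 and 17 at an adjusted p below 0.05, 17 and 5 at the study's thresholds, and 146 lower with a length offset. Leaving out 1 library at 0 h gave 11 to 385 lower and 2 to 23 higher, with the most of each without Atg7KO replicate 1 and the fewest without a WT replicate. In WT cells 35 fell and 46 rose at the study's thresholds. In Atg7KO cells, against 71 fallen and 95 risen, there were 126 and 162 with all 12 libraries, 128 and 159 below 0.05, and 32 and 33 at the study's thresholds. Leaving out 1 library gave 31 to 198 fallen and 48 to 219 risen, with the most without untreated replicate 1 and 31, 34 and 33 fallen without treated replicate 1, 2 and 3. For the difference of responses, against 54 more negative and 71 more positive members, there were 88 and 111 with no filter, 106 and 134 below 0.05, and 20 and 11 at the study's thresholds. Leaving out 1 library gave 29 to 114 and 36 to 164. YEATS2 had a WT response of -0.23, and of 0.02 with a length offset.

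Replicate numbers do not pair the samples, but a fit with the replicate block gave 21 lower and 5 higher members at 0 h, 371 and 60 at 12 h, 219 fallen and 224 risen in WT, 50 and 78 in Atg7KO cells, and 43 and 61 for the difference. The median under the block was -0.39 at 0 h and -0.32 at 12 h. With 3 libraries a group, small differences at 0 h were not detectable at this spread.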
